A study of Mus musculus with 13 samples.

Results

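Transcripts of the intestinal epithelium were measured in RNA from sorted eosinophils of the small intestinal lamina propria (siLP) of mice. The genes were the numbered alpha-defensins (Defa followed by a number) and 26 further listed genes of Paneth cells, enterocytes, goblet cells and the epithelium at large, with the gastrokines Gkn1 and Gkn2 among them. They were found by symbol in both expression tables, and the probe set of a gene with several was chosen by its measured level, as the one with the highest mean over all arrays of the table. In this way 30 genes were found of 25070 in either table, 26 of 20527 in the reporter table and 27 of 24111 in the other, with 23 in both. The list itself was drawn up with earlier results of these data known, among them the levels in these sorts, so the levels below are a description. Ang4, Itln1 and Lgals4 were named in the reporter table only, and Defa21, Defa22, Defa25 and Muc2 in the other table only.

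The reporter arrays held mCherry+ (5 arrays) and mCherry- (5 arrays) eosinophils of Clec4a4 knock-in mCherry mice, so the controls carry the knock-in too, and mCherry stands for expression of the lectin receptor Clec4a4. The other table held 1 array of Clec4a4- eosinophils of Ahr KO mice, 1 of Clec4a4+ eosinophils of WT mice and 1 of Clec4a4- eosinophils of WT mice. Neither age, sex, the number of mice per sample nor the Ahr allele is given in the labels, and each array started from 2 ng of amplified total RNA. All values are log2 intensities after RMA, which brings the arrays of a table to 1 distribution. Because the array model differs between the 2 tables and each had its own normalization, levels are compared only within a table and only for the same gene. The titles call the reporter replicates biological but do not say which mouse or pool each came from, so a p-value here covers the spread between these samples.

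The small intestinal epithelium renews itself from crypts. Enterocytes absorb nutrients and line the villi, goblet cells secrete mucus, and Paneth cells at the crypt base secrete alpha-defensins, lysozyme and other antimicrobial proteins. Eosinophils live in the lamina propria just below this layer, and these products are not used as their markers. Gastrokines are secreted by surface mucous cells of the stomach. In bulk samples, fewer cells of a type and less RNA per cell cannot be told apart. Whether these transcripts came from epithelial RNA carried into the sorts or from the sorted cells was not tested.

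The label of eosinophils was checked on their markers. Ccr3, the eotaxin receptor, had values of 9.42 to 11.34 on the 10 reporter arrays and of 9.41 to 9.81 on the 3 single arrays. Siglecf, a sialic acid receptor that marks mouse eosinophils, had values of 7.41 to 8.97 on the reporter arrays and of 8.20 to 8.67 on the single arrays. Epx, eosinophil peroxidase, had values of 4.31 to 4.89 on the reporter arrays, under that table's median gene value of 5.36, and of 4.41 to 4.88 on the single arrays, where the median gene value was 4.79. Il5ra, a chain of the interleukin-5 receptor, ranged from 4.82 to 6.77 on the reporter arrays, in part under 5.36. Prg2, major basic protein, ranged there from 5.25 to 8.30, also in part under 5.36. On the single arrays Il5ra ranged from 7.82 to 8.24 and Prg2 from 8.58 to 9.85, above 4.79. Clec4a4 stood at 3.93 on the array labelled Ahr KO, at 9.14 on WT Clec4a4+ and at 5.56 on WT Clec4a4-. Ahr stood at 11.12 on the array labelled Ahr KO, at 11.11 on WT Clec4a4+ and at 11.08 on WT Clec4a4-. Which part of Ahr is deleted is not given, so this probe set may lie outside it and does not check the label.

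The promoters of 4 members are shown because they start genes of the patterns described below: Sis and Alpi for enterocytes, Defa21 for Paneth cells and Gkn2 for gastrokines. Each is the RefSeq window of 300 bases, 250 before the start and 50 after it, in GRCm38.p6, written on the strand of the gene. Sis lies at chr3:72967814-72968113 on the minus strand, Alpi at chr1:87101557-87101856 on the minus strand as the table gives it, Defa21 at chr8:21025295-21025594 on the plus strand and Gkn2 at chr6:87373115-87373414 on the plus strand. Capitals mark the TATA box letters TATAAA, the core TTTAT of elements bound by the intestinal factor CDX2, and CAAAGTCCA, an element bound by HNF4A. Each was matched by its letters anywhere in the window on either strand, so a match need not be a working element.
Sis: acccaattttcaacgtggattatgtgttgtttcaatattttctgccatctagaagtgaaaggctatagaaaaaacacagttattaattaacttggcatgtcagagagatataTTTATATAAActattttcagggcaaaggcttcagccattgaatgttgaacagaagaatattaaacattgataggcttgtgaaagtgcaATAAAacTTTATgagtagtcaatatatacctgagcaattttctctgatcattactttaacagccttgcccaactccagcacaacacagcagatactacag
Alpi: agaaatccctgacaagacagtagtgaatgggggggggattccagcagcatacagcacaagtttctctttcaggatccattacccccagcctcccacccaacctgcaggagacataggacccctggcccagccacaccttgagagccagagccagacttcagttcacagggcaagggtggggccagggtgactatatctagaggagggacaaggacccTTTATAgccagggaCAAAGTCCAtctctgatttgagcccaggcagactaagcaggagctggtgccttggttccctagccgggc
Defa21: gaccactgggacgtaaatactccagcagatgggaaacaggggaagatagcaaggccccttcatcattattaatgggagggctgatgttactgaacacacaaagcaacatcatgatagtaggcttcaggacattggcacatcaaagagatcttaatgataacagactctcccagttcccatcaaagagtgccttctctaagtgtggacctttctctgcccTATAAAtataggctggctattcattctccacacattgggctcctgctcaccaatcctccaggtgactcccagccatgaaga
Gkn2: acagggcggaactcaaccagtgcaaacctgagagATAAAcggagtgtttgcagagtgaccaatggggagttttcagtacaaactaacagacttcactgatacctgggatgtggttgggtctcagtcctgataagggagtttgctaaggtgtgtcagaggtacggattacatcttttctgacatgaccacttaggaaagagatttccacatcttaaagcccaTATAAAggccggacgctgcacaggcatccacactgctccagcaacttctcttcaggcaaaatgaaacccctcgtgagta

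Windows were in the table for 23 of the 30 genes, 24 windows in all because Mmp7 has 2. Cdh1, Cdh17, Defa25, Defa26, Dmbt1, Krt19 and Tff3 had none. TATAAA was in 12 of the 24 windows and in 13.6% of all 32851 windows. TTTAT was in 16 of the 24 and in 40.0% of all, and its reverse complement lies inside TATAAA, so every TATAAA match counts for both. CAAAGTCCA was in 1 of the 24, that of Alpi, and in 0.475% of all. The windows of Defa21 and Defa22 differed at 0 of 300 bases. Alpha-defensins are such close copies that their probe sets may measure one another, and Lyz1 has a close paralog, Lyz2, so the values of these genes are uncertain as to the copy.

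Every one of the 26 genes in the reporter table spanned at least 2 on the log2 scale, or 4-fold, from the lowest to the highest of the 10 arrays, as did 7.05% of all genes. The median span was 3.03, or 8.18-fold, against 0.79, or 1.72-fold, over all genes. The spread followed the replicate number in the titles rather than the sorted group. The share of a gene's variance that lay between the 5 numbers had a median of 95.7% over the members and 52.9% over all genes, and the share between mCherry+ and mCherry- a median of 0.787% and 6.35%. Both arrays of number 1 were the 2 lowest for 20 of the 26 members (6.68% of all genes), and both arrays of number 4 the 2 highest for 17 (5.60% of all genes). These counts were made after the values were seen and carry no test.

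**Figure D1:**
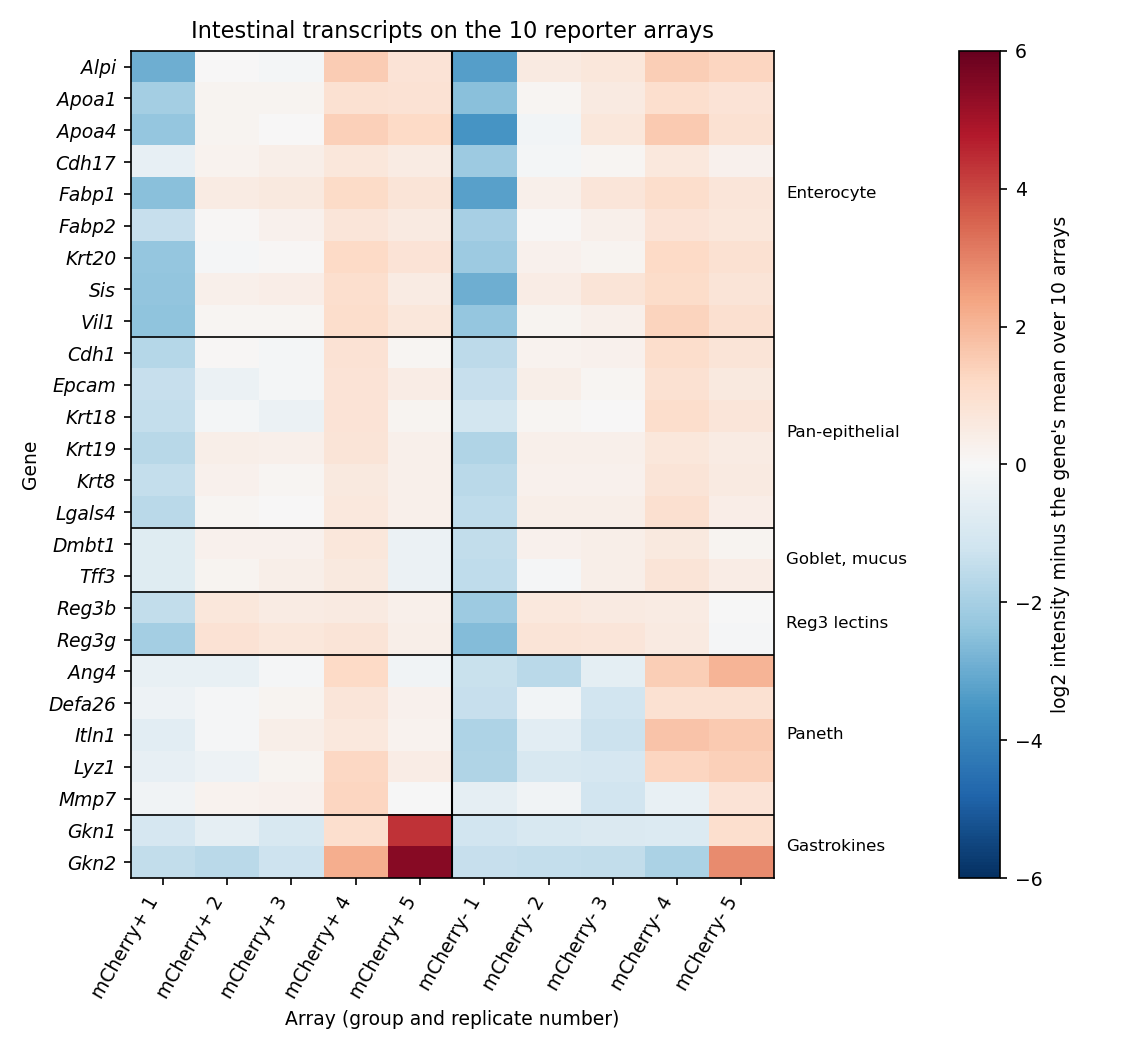
Log2 intensity of each of the 26 genes (rows, by class) minus its own mean over the 10 reporter arrays (columns, mCherry+ left of the line and mCherry- right of it), in color. Enterocyte, pan-epithelial and Reg3 genes are low in both arrays of number 1, while Gkn1 and Gkn2 stand out in mCherry+ 5, mCherry+ 4 and mCherry- 5.

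The 9 enterocyte genes showed the pattern most fully. Their mean over genes was 8.15, 10.39, 10.44, 11.31 and 10.97 in mCherry+ arrays 1 to 5, and 7.55, 10.41, 10.71, 11.37 and 11.06 in mCherry- arrays 1 to 5. The groups overlapped, and the lowest and the highest array were 14.1-fold apart. All 9 were lowest in the arrays of number 1 and all 9 highest in those of number 4. Apoa1, an apolipoprotein of high-density lipoprotein, stood at 9.87, 12.07, 12.11, 12.85 and 12.79 in mCherry+ arrays 1 to 5. In mCherry- arrays 1 to 5 it stood at 9.41, 12.03, 12.45, 12.93 and 12.75. The numbers thus repeated in both groups for this gene to within 0.46. Its second probe set, which was not used, spanned 4.27 where the one used spanned 3.53, and the second of Apoa4 4.98 against 5.09.

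Sis, the brush-border disaccharidase sucrase-isomaltase, stood at 6.89, 9.53, 9.64, 10.26 and 9.73 in mCherry+ arrays 1 to 5 and at 6.30, 9.69, 10.03, 10.34 and 10.03 in mCherry- arrays 1 to 5. Alpi, intestinal alkaline phosphatase, stood at 6.30, 9.25, 9.11, 10.75 and 10.07 in mCherry+ arrays 1 to 5 and at 5.94, 9.75, 9.91, 10.72 and 10.51 in mCherry- arrays 1 to 5. Both were lowest in number 1 of either group. Apoa4, an apolipoprotein of chylomicrons, had the widest span of the class at 34.2-fold, and Fabp2, the intestinal fatty acid-binding protein, the narrowest at 7.03-fold. Fabp1, the liver-type fatty acid-binding protein, spanned 20.9-fold. Krt20, a keratin of differentiated epithelium, spanned 11.2-fold and Vil1, the microvillus protein villin, 13.7-fold.

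Cdh17, the liver-intestine cadherin, departed from the rest of its class. It stood at 9.41, 10.08, 10.24, 10.57 and 10.35 in mCherry+ arrays 1 to 5, against 7.71, 9.78, 9.99, 10.50 and 10.13 in mCherry- arrays 1 to 5. It was higher in mCherry+ in 5 of 5 numbers, by 1.69 in number 1 and by 0.06 to 0.30 in the others. Over all arrays the difference was 0.50 (SE 0.45, n = 5 per group, limma adjusted p = 0.934, and 0.414 with the replicate number as a block). Its share of variance between numbers was 75.5%, the lowest of the class, whose median was 98.3%.

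The 6 pan-epithelial genes were lowest in number 1 and highest in number 4 without exception. Krt8, a keratin of simple epithelia, stood at 10.14, 11.83, 11.67, 12.15 and 11.85 in mCherry+ arrays 1 to 5 and at 9.94, 11.82, 11.84, 12.33 and 12.11 in mCherry- arrays 1 to 5. Krt18, its partner, stood at 8.11, 9.42, 9.20, 10.37 and 9.72 in mCherry+ arrays and at 8.45, 9.67, 9.57, 10.62 and 10.29 in mCherry- arrays. Krt18 was lower in mCherry+ in each number, by between 0.25 and 0.57. The difference of -0.35 (SE 0.45) had an adjusted p of 0.964 by limma, and 0.115 with the block, where the SE was 0.09. Cdh1, the epithelial cadherin, and Lgals4, a galectin of the gut epithelium, were also lower in mCherry+ in 5 of 5 numbers, with differences of -0.31 and -0.20. Epcam, an adhesion molecule of epithelia, and Krt19 spanned 5.02-fold and 5.99-fold over the 10 arrays.

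Of the goblet cell and mucus genes, Tff3, the intestinal trefoil factor, stood at 9.50, 10.40, 10.59, 10.80 and 9.88 in mCherry+ arrays 1 to 5 and at 8.70, 10.14, 10.56, 10.98 and 10.67 in mCherry- arrays 1 to 5. Dmbt1, a scavenger receptor-like protein of mucosal surfaces, moved with it (r = 0.972 over 10 arrays, which share their numbers). Both genes were low in number 1, and in mCherry+ 5 they lay 0.79 and 0.51 under mCherry- 5. Reg3b, a secreted lectin of enterocytes and Paneth cells, stood at 10.36, 12.51, 12.33, 12.38 and 12.13 in mCherry+ arrays 1 to 5 and at 9.67, 12.45, 12.39, 12.32 and 11.79 in mCherry- arrays 1 to 5. Reg3g, a bactericidal relative, followed it (r = 0.997). These lectins were lowest in number 1 but highest in mCherry+ 2, not in number 4.

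**Figure D2:**
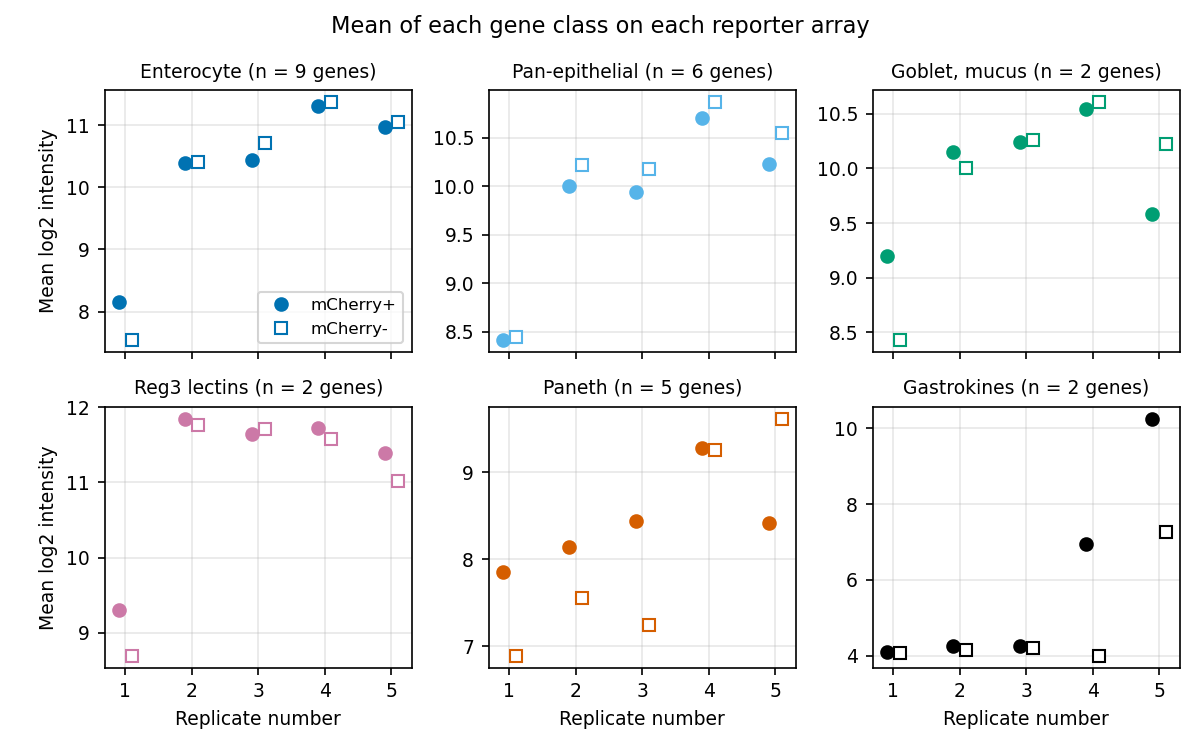
Mean log2 intensity (y axis, its own scale in each panel) of the genes of each class on each reporter array, by replicate number (x axis), with mCherry+ as filled circles and mCherry- as open squares. In 4 panels both arrays of number 1 lie lowest, in the Paneth panel the groups cross between numbers 3 and 5, and the gastrokines are near 4 in 7 arrays.

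Paneth cell genes differed from the villus genes in which arrays were high. Lyz1, the Paneth cell lysozyme, stood at 9.82, 10.01, 10.45, 11.53 and 10.75 in mCherry+ arrays 1 to 5 and at 8.50, 9.35, 9.28, 11.57 and 11.71 in mCherry- arrays 1 to 5. Its highest array was mCherry- 5, and mCherry- 2 and 3 lay below mCherry+ 1. Defa26, an alpha-defensin, stood at 9.33, 9.55, 9.79, 10.36 and 9.88 in mCherry+ arrays and at 8.25, 9.44, 8.47, 10.54 and 10.54 in mCherry- arrays, in the same order. Itln1, a lectin that binds microbial glycans, spanned 11.9-fold and Ang4, an antimicrobial ribonuclease of the angiogenin family, 12.4-fold. Mmp7, the protease that activates alpha-defensins in mouse Paneth cells, stood at 6.48, 6.87, 6.96, 7.95 and 6.66 in mCherry+ arrays and at 6.15, 6.46, 5.54, 6.23 and 7.49 in mCherry- arrays. Only 30.2% of its variance lay between numbers.

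Within numbers 1, 2, 3 and 5, the 5 Paneth genes went together by sign, but not within number 4. All 5 were higher in mCherry+ in numbers 1, 2 and 3, with median differences of 1.08, 0.57 and 1.32. One of them, Mmp7, was higher in mCherry+ in number 4, by 1.72. The others there differed by -0.04 (Lyz1) to -1.05 (Itln1), and the median of the class was -0.18. In number 5, 0 of 5 were higher in mCherry+ (median -0.96). The enterocyte medians in numbers 1 to 5 were 0.59, 0.01, -0.14, -0.08 and -0.12. The median correlation between a Paneth and an enterocyte gene over the 10 arrays was 0.66, against 0.98 between enterocyte genes and 0.85 between Paneth genes. These are descriptions over arrays that share numbers.

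Gkn1 and Gkn2 had a pattern of their own. Gkn2 stood at 3.64, 3.51, 3.87, 7.28 and 10.56 in mCherry+ arrays 1 to 5 and at 3.72, 3.67, 3.65, 3.23 and 7.96 in mCherry- arrays 1 to 5. Gkn1 stood at 4.57, 5.04, 4.65, 6.59 and 9.94 in mCherry+ arrays and at 4.44, 4.64, 4.75, 4.76 and 6.59 in mCherry- arrays. On 3 arrays, mCherry+ 5, mCherry+ 4 and mCherry- 5, both were above the table's median gene value of 5.36, and on the other 7 both were under it. In mCherry- 4, with the highest enterocyte mean of all arrays, Gkn2 was thus under the median gene value. The 2 gastrokines correlated at 0.961 with each other and at a median of 0.41 with the enterocyte genes.

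The comparison of mCherry+ with mCherry- asks whether either subset carried more of these transcripts. Of the 26 members, 0 were called by limma with the adjusted p (Benjamini-Hochberg, 20527 genes) below 0.05, and 0 had an unadjusted p under 0.05. Of all genes 0.375% were called, 32 (0.156%) higher and 45 (0.219%) lower in mCherry+. With the replicate number as a block, limma again called 0 members (1.82% of all genes, with 1.06% higher and 0.755% lower in mCherry+), and 6 had an unadjusted p under 0.05, against 11.9% of all genes: Cdh17, Cdh1, Krt18, Lgals4, Reg3g and Gkn1. Leaving out 1 array gave 0 called members each time, while the count over all genes lay between 28 without mCherry+ 5 and 115 without mCherry+ 4. The median difference over the members was 0.04 (17 higher and 9 lower by sign), against -0.01 over all genes. It was 0.43 without mCherry+ 1 and -0.43 without mCherry- 1, and -0.07 without both arrays of number 1.

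By gene, Lyz1 averaged 10.51 ± 0.68 in mCherry+ and 10.08 ± 1.46 in mCherry- arrays (SD, n = 5 each), a difference of 0.43 (SE 0.61, limma adjusted p = 0.973) that was 0.035 without mCherry- 1 and 0.84 without mCherry- 5. Defa26 averaged 9.78 ± 0.39 in mCherry+ and 9.45 ± 1.09 in mCherry- arrays, with a difference of 0.33 (SE 0.45, adjusted p = 0.967) that was 0.033 without mCherry- 1 and 0.61 without mCherry- 5. Mmp7, with 21.9% of its variance between the groups, differed by 0.61 (SE 0.36, adjusted p = 0.81), Reg3b by 0.22 and Krt8 by -0.08. Gkn2 averaged 5.77 ± 3.10 in mCherry+ and 4.44 ± 1.98 in mCherry- arrays, a difference of 1.33 (SE 1.38, adjusted p = 0.954) that was 0.13 without mCherry+ 5. Gkn1 differed by 1.12 (SE 0.91, adjusted p = 0.91), and by 0.18 without mCherry+ 5. With the replicate number as a block, the SE was 0.30 for Lyz1, 0.27 for Defa26, 0.33 for Mmp7, 0.62 for Gkn2 and 0.46 for Gkn1. The limma adjusted p with the block was 0.667, 0.732, 0.547, 0.465 and 0.373 in that order. A p that misses the threshold does not show that the groups carried equal amounts.

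**Figure D3:**
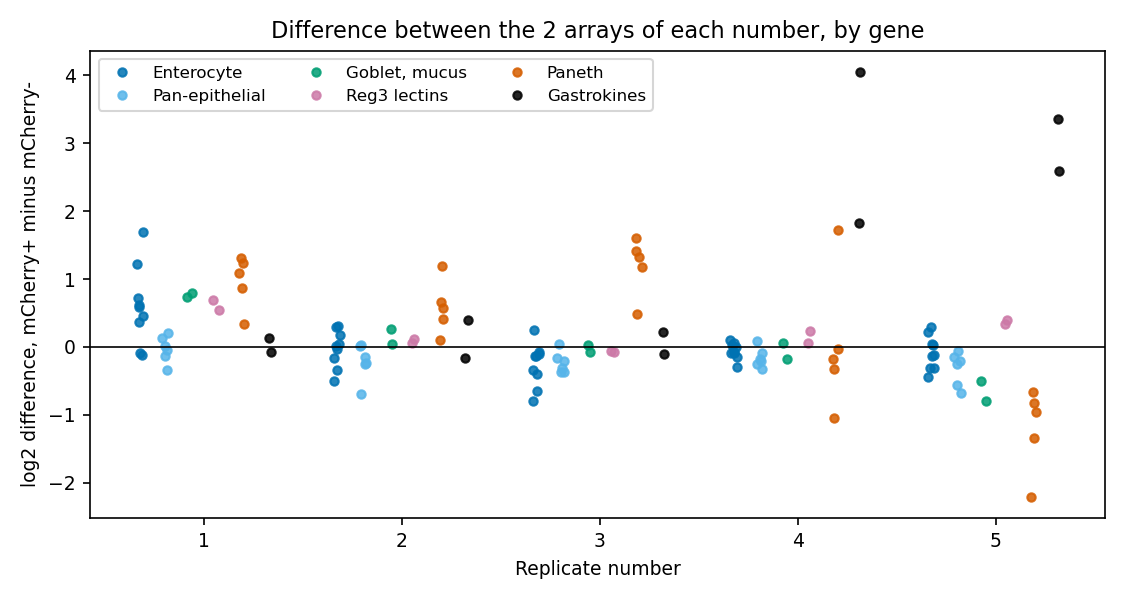
Log2 difference between mCherry+ and mCherry- (y axis) within each replicate number (x axis), 1 point per gene, colored by class. Paneth genes lie above 0 in numbers 1 to 3 and below 0 in number 5, gastrokines lie far above 0 in numbers 4 and 5, and Cdh17, at 1.69, is the highest point of number 1.

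Within number 1, 20 of 26 members were higher in mCherry+ (50.4% of all genes), and within number 5, 8 of 26 (52.6% of all genes). In numbers 2, 3 and 4 the counts were 17, 9 and 10 of 26 (65.4%, 34.6% and 38.5%), against 49.4%, 44.9% and 46.7% of all genes. Of the 26, 6 had 1 sign in all 5 numbers, against 12.0% of all genes: Cdh17 was higher in mCherry+, and Krt20, Vil1, Cdh1, Krt18 and Lgals4 were lower.

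The mean of the members in each array was also entered as a covariate in the test over all genes, to see how the subset comparison stands with this signal in the model. That fit called 117 genes higher (0.570%) and 102 lower (0.497%) in mCherry+, 1.07% of all genes together, and all 77 genes called without the covariate were among them in the same direction. Of these 219 genes, 203 were also called with the replicate number as a block (92.7% of the 219 and 54.4% of the 373). The members varied mostly between replicate numbers (median share 95.7%), so this fit cannot separate their signal from other differences between numbers.

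Enterocyte and pan-epithelial genes outside the list were low and high in the same arrays. These further lists were also chosen with earlier results of these data known, so the counts are a description. Of all genes, 6.68% were lowest in the 2 arrays of number 1 and 5.60% highest in those of number 4. Of 20 further enterocyte genes, 19 were lowest in number 1 and 15 highest in number 4. Their mean lay between 6.27 and 9.35 in mCherry+ arrays and between 6.16 and 9.41 in mCherry- arrays. Of 15 further pan-epithelial genes, 13 were lowest in number 1, and of 8 measured further goblet genes 4 were. Of 10 further Paneth and crypt genes 3 were, and of 10 enteroendocrine and tuft cell genes 2 were. Limma without the block called 0 genes of these lists between the groups, and with the block 0 enterocyte genes and 1 goblet gene, lower in mCherry+. Among the non-member genes closest in pattern to the mean of the 26 members over the 10 arrays were Dhrs11 (r = 0.993) and B230206H07Rik (0.989). Others were the membrane mucins Muc3 (0.986) and Muc13 (0.982), and Apob, the apolipoprotein of chylomicrons (0.983). Apob is itself among the 20 further enterocyte genes.

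Eosinophil genes, taken as a mean, ran the other way across arrays. The mean of 15 measured eosinophil genes was 8.34, 8.10, 8.24, 7.49 and 8.08 in mCherry+ arrays 1 to 5 and 8.41, 8.03, 8.18, 7.25 and 7.86 in mCherry- arrays 1 to 5. It was highest in number 1, where enterocyte genes were lowest, and lowest in number 4, where they were highest. Ccr3 stood at 11.32 in mCherry+ 1 and 11.34 in mCherry- 1, and at 9.75 in mCherry+ 4 and 9.42 in mCherry- 4. Other eosinophil genes followed the mean only in part or not at all. Siglecf was lowest in number 4, at 8.11 and 7.41, but highest in mCherry+ 3, at 8.97. Prg2 was lowest in mCherry+ 2, at 5.25, and stood at 7.05 in mCherry- 4 against 5.60 in mCherry- 5. Epx stayed between 4.31 and 4.89, under the table's median gene value. Of the 15 genes, 7 were lowest in the arrays of number 4, as were 7.32% of all genes. Clec4a4, itself one of the 15, had the lowest value of each sorted group in number 4, at 8.29 in mCherry+ 4 and 6.42 in mCherry- 4. Stromal and endothelial genes averaged 7.07 in mCherry+ 4 and 6.92 in mCherry- 4, and 5.79 to 6.43 on the other 8 arrays, with 8 of 12 highest in number 4. T cell, NK cell and ILC genes averaged 7.14 in mCherry+ 1 and 7.13 in mCherry- 1, and 5.93 to 6.92 on the other 8. The part of these cells in the epithelial values was not tested. Xist, a transcript of female cells, stood at 9.90 in mCherry+ 1 and 10.36 in mCherry- 1. It lay between 3.56 and 3.93 in the other 8 arrays, so sex and number 1 cannot be told apart here. On the single arrays Xist stood at 10.69 on the array labelled Ahr KO, 10.78 on WT Clec4a4+ and 10.91 on WT Clec4a4-.

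**Figure D4:**
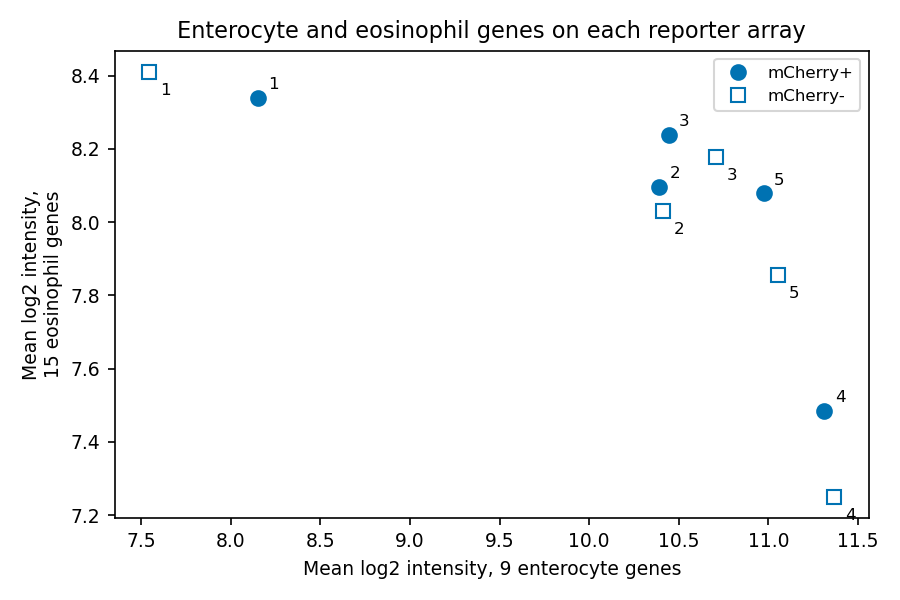
Mean log2 intensity of 15 eosinophil genes (y axis) against that of 9 enterocyte genes (x axis) on each reporter array, with mCherry+ as filled circles, mCherry- as open squares and the replicate number beside each point. The arrays of number 1 lie at the upper left and those of number 4 at the lower right.

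On the 3 single arrays, 5 of the 27 members (Krt20, Sis, Reg3b, Reg3g and Defa22) were under the table's median gene value of 4.79 on all 3, against 46.5% of all genes. Another 15 were at or above it on all 3. Of the enterocyte genes other than Cdh17, Sis stood at 2.63 on the array labelled Ahr KO, 2.59 on WT Clec4a4+ and 2.82 on WT Clec4a4-, and Apoa1 at 5.26, 5.13 and 5.13 in that order. Fabp1 stood at 5.18, 5.54 and 4.78 and Vil1 at 4.61, 4.34 and 5.04. Values under the median gene value may not follow the transcript, so those of Sis carry no comparison. There is 1 array a group, so no difference below has a replicate check. Genes were counted if their values lay at least 2-fold apart and the higher one was at 4.79 or above, and a fold against a value under 4.79 is a bound taken from 4.79.

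Cdh17 again stood apart from its class. It was at 9.09 on WT Clec4a4+ and at 5.49 on WT Clec4a4-, 12.2-fold higher, while no other enterocyte gene was 2-fold apart. On the array labelled Ahr KO, whose cells were Clec4a4-, it was at 9.21, 13.2-fold above WT Clec4a4-. The 5 measured pan-epithelial genes were all lower by sign on WT Clec4a4+ than on WT Clec4a4-, by 0.38 to 0.97, and none was 2-fold apart. By sign, 10994 of all 24111 genes were lower there too. Krt19, at 4.77 on WT Clec4a4+, was under 4.79 on that array. Of the Paneth genes, Lyz1 stood at 5.88 on the array labelled Ahr KO, 4.94 on WT Clec4a4+ and 7.63 on WT Clec4a4-. Defa26 stood at 3.99, 3.66 and 6.04 and Defa21 at 4.52, 4.79 and 5.96 in the same order. All 6 Paneth genes measured were highest on WT Clec4a4- by sign, but Defa22, at 3.39, 3.25 and 4.53, was under 4.79 on all 3 arrays. Defa25, at 5.60, 5.55 and 5.66, differed least. Alpha-defensin probe sets may measure one another, so the 6 need not be separate signals. Of all 24111 genes, 11102 were lower by sign on the array labelled Ahr KO than on WT Clec4a4-.

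Gkn2 stood at 9.18 on the array labelled Ahr KO, 4.45 on WT Clec4a4+ and 9.80 on WT Clec4a4-. Gkn1 stood at 7.49, 5.27 and 8.63 in that order. Both were thus high on the 2 Clec4a4- arrays and low on the Clec4a4+ array. In the reporter table the high arrays were mCherry+ 4, mCherry+ 5 and mCherry- 5.

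In all, 1 member was 2-fold or more higher and 5 lower on WT Clec4a4+ than on WT Clec4a4- (1.64% of all genes, 0.643% higher and 1.00% lower). The lower ones were Gkn2, at least 32.1-fold, Gkn1, 10.3-fold, Lyz1, 6.46-fold, Defa26, at least 2.37-fold, and Defa21, at least 2.24-fold. Against WT Clec4a4-, the array labelled Ahr KO had 2 members higher and 4 lower (1.32% of all genes, 0.577% higher and 0.747% lower). Cdh17 and Dmbt1 (5.78 against 4.02, at least 1.98-fold by the bound) were higher, and Lyz1, 3.36-fold, Gkn1, 2.21-fold, Defa26 and Defa21 were lower. Both comparisons use the same WT Clec4a4- array, and the next one shares an array with each of them. Against WT Clec4a4+, the array labelled Ahr KO had 4 members higher and 0 lower (0.995% of all genes, 0.498% higher and 0.498% lower): Gkn2, at least 21.0-fold, Gkn1, 4.65-fold, Dmbt1 (5.78 against 3.12, at least 1.98-fold by the bound) and Krt19 (5.77 against 4.77, at least 1.97-fold by the bound). The bounds of Dmbt1 and Krt19 are under 2-fold, so their place in the counts rests on values under 4.79. With 1 array per group no test could be run on these counts.

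**Figure D5:**
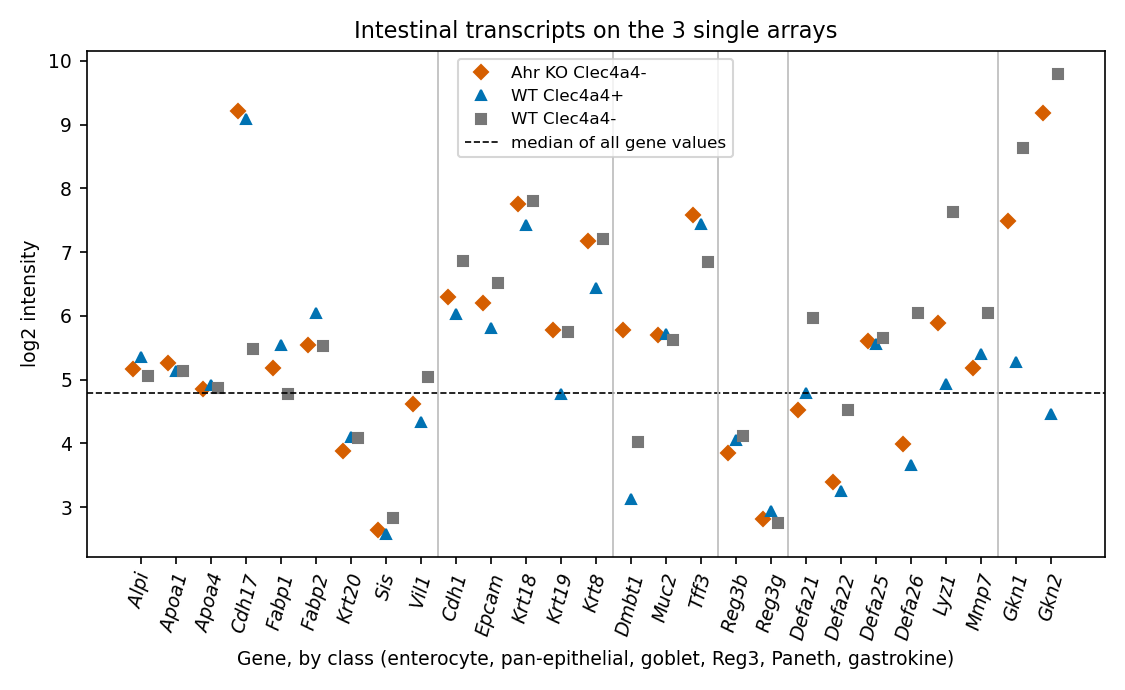
Log2 intensity (y axis) of the 27 genes (x axis, by class) on the 3 single arrays, with the median of all gene values dashed. Cdh17 is near 9 on the array labelled Ahr KO and on WT Clec4a4+, Gkn1, Gkn2, Lyz1 and Defa26 are highest on WT Clec4a4-, and Sis and the Reg3 lectins lie under the median on all 3.

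The median difference over the 27 members was -0.38 on WT Clec4a4+ relative to WT Clec4a4-, -0.06 on the array labelled Ahr KO relative to WT Clec4a4-, and 0.13 on it relative to WT Clec4a4+, against 0.00 over all genes each time. Of the further lists, the 15 eosinophil genes averaged 8.27 on the array labelled Ahr KO, 8.39 on WT Clec4a4+ and 8.46 on WT Clec4a4-. The 20 further enterocyte genes averaged 4.89, 4.92 and 4.99 in that order, and the 15 further pan-epithelial genes 5.44, 5.27 and 5.61. Muc2, the main intestinal mucin, stood at 5.71, 5.71 and 5.63 and Tff3 at 7.58, 7.44 and 6.84. For Cdh1 and Krt18 a second probe set, not used, lay under 4.79 on all 3 arrays, between 3.09 and 3.19 and between 3.52 and 3.98.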

How the data were processed

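The deposited values were log2 intensities of 10 reporter arrays and 3 single arrays, made with RMA per the submitters' processing notes. Its version was not stated in what was used here. RMA brings the arrays of each table to the same distribution, so a value is relative to the other transcripts of that array. The series matrix values were the same to within 5.0e-09. Array medians lay between 5.18 and 5.27 and between 4.73 and 4.75, and the number of arrays limits precision.

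Symbols came from the third field of the deposited annotation, and 22549 of 35556 and 25349 of 28360 probe sets had one. Groups were compared over all genes with limma (version 3.58.1, R 4.3.3), two-sided, with eBayes set to trend and robust. The fit was tested on simulated data in which arrays of the same number shared no effect, so that test does not cover such an effect. Arrays with the same number deviated together from their group means (correlations 0.653, 0.163, 0.158, 0.527 and 0.197 for numbers 1 to 5). No label says what the number stands for, so the fit with it as a block is given beside the one without. The members and lists were chosen with earlier results of these data known. Named genes are all members, the 6 nearest genes (1 of them is not reported here), and checks of the labels. Alternatives were the block, leaving out arrays, other probe sets, the series matrix, filters, moderation, the members' mean as a covariate and, for single arrays, the floor, fold and centring.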

Additional observations from a re-analysis of the deposited data

Results flagged for a closer look

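In each reporter group of 5, a single array far from the other 4 was looked for by Dixon's criterion (gap over range above 0.71), which chance meets in about 1 of 20 groups. It was met in 24 of the 52 groups of member values, against 7.08% of all genes in mCherry+ and 6.90% in mCherry-. Of the 24 values, 21 were low values in an array of number 1, from 13 members. In mCherry+ 1 these were Apoa1 at 9.87, Fabp1 at 8.15, Sis at 6.89, Vil1 at 6.63, Krt19 at 8.53, Krt8 at 10.14, Lgals4 at 9.02, Reg3b at 10.36 and Reg3g at 8.25. In mCherry- 1 they were Alpi at 5.94, Apoa1 at 9.41, Cdh17 at 7.71, Fabp1 at 7.43, Fabp2 at 9.77, Sis at 6.30, Krt19 at 8.40, Krt8 at 9.94, Lgals4 at 9.07, Dmbt1 at 8.16, Reg3b at 9.67 and Reg3g at 7.71. The other 3 were high values: Ang4 at 8.34 in mCherry+ 4, where the other 4 arrays lay between 6.70 and 7.06, and Gkn1 at 6.59 and Gkn2 at 7.96 in mCherry- 5, where the others lay between 4.44 and 4.76 and between 3.23 and 3.72.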

How the results depend on the processing

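No setting called a member in the reporter comparison, and the series matrix values changed no result. The count of genes called, 77, was 373 with the replicate block, 219 with the members' mean as a covariate, 118 among genes reaching the table median and 38 without both arrays of number 1. Leaving out 1 array gave 28 to 115 and moved the count by over 1.5 times without mCherry+ 1, 2, 3 or 5 or mCherry- 2, 3 or 5 (43, 31, 32, 28, 35, 45 and 37). Over the 26 members, 17 higher and 9 lower in mCherry+ became 9 and 17 without both arrays of number 1, 25 and 1 without mCherry+ 1, and 6 and 20 without mCherry- 1. Differences were recomputed singly for 13 members. Of these, without both arrays of number 1 Apoa1, Dmbt1, Krt19 and Tff3 turned, to -0.084, -0.12, -0.015 and -0.17. With 1 array left out, the sign among the 13 turned for Apoa1 (-0.60 to 0.54), Dmbt1 (-0.31 to 0.24), Krt19 (-0.44 to 0.44), Krt8 (-0.49 to 0.27), Reg3b (-0.30 to 0.61) and Tff3 (-0.36 to 0.21), none of them called. The cause was not tested. The median share of variance between numbers was 80.0% without number 1, against 47.8% over all genes. The single-array counts of 6, 6 and 4 lay at 5 to 7, 4 to 7 and 3 to 4.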

Other observations

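The mean of 12 neutrophil genes was 5.93 to 6.20 in mCherry+ arrays and 6.75 to 7.38 in mCherry- arrays, without overlap, but the median difference over the 12 was only -0.14, and 7 had means under the table median. Limma without the block called 0 of the 12 higher and 2 lower in mCherry+ (0.375% of all genes called). Macrophage and dendritic cell genes averaged 5.50 to 6.31 in mCherry+ and 5.67 to 6.23 in mCherry- arrays, with 0 of 12 called. Plasma and B cell genes averaged 5.81 to 6.67 in mCherry+ and 5.85 to 6.30 in mCherry- arrays, with 0 of 8 called. Mast cell genes averaged 4.95 to 5.64 in mCherry+ and 5.04 to 5.41 in mCherry- arrays, and the 2 erythroid genes measured 5.00 to 5.18 and 5.01 to 5.30. Enteroendocrine and tuft cell genes averaged 5.08 to 5.83 in mCherry+ and 4.96 to 5.88 in mCherry- arrays, with 5 of 10 under the table median on average.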
